A study of Mus musculus with 5 samples.

Results

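The 10 Polycomb complex genes described here were chosen by name: Ezh1, Ezh2, Eed and Suz12 of the core of Polycomb repressive complex PRC2, its accessory subunits Jarid2, Mtf2 and Phf19, and the chromobox subunits Cbx2, Cbx7 and Cbx8 of the complex PRC1. All 10 had a probe on the array, among 19897 genes with a probe matched by transcript accession. Polycomb proteins keep developmental genes, the Hox clusters among them, silent in embryonic stem (ES) cells. PRC2 places a methyl mark on a lysine of histone H3 through Ezh1 or Ezh2, while a chromobox subunit lets PRC1 bind that mark, and exchange of subunits is a known feature of cells that leave the ES state.

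RNA of mouse cells, labelled male and wild type, was measured while ES cells were turned into motor neurons with retinoic acid (RA) and the ventral signal Shh. The labels place this treatment between day 2 and day 5, but also name 5 days of RA induction for Day7, and this difference was not resolved. The 5 time points were ES, Day2 (embryoid bodies 8 h after RA), Day3 (1 day of RA), Day4 (2 days of RA) and Day7 (motor neurons, 5 days of RA). Each time point had 1 one-colour array of 55681 mouse probes, so no value has a spread between replicates and no p-value was computed. The ES cell line is not named in the labels.

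The arrays were not equal in quality. On the Day2 array 86.7% of probes were well above background, against 57.5% to 65.7% on the other 4 arrays. The Day7 array lay alone on a second slide, and for changes to Day7 the slide and the time cannot be told apart. The median SD between spots of the same probe was 0.10 on the log2 scale on the Day2 array and 0.05 or 0.06 on the others. Different probes of a gene differed more. Over 3491 genes with a pair of detected probes, the ES to Day7 changes of the brightest and the next probe differed by a median of 0.54, and 1 gene in 10 exceeded 1.87. All values below are quantile-normalized log2 intensities of the brightest probe of a gene, and the words rose and fell are used for a change of at least 2-fold (1 on the log2 scale). Each member was measured by 1 spot per array and probe.

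From ES to Day7 the markers mostly followed the labels, but some neural genes were higher in ES cells than at Day3. Of 5 pluripotency genes, 4 fell at least 2-fold from ES to Day7, among them Pou5f1, which fell by 4.17 on the log2 scale, and the remaining gene, Nanog, changed by -0.40. All 6 motor neuron genes rose at least 2-fold over the same interval, with a median change of at least 5.98, and so did 5 of 6 general neuron genes, with a median change of 4.48. The 4 neural progenitor genes went both ways from ES to Day7, where Sox1 and Nes rose by 1.33 and 1.47 while Pax6 and Olig2 fell by 1.60 and 2.98. Pax6 and Olig2 fell by 5.11 and 4.12 from Day4 to Day7, where Nes changed by 0.95 and the probes of Sox1 disagreed, with 0.72 on the brightest and -1.80 on the other. Olig1, Olig2 and Stmn2 read 12.28, 10.34 and 13.06 in ES cells and 8.01, 7.87 and 10.58 at Day3. From ES to Day3 1 motor neuron gene rose and 3 fell, and 2 neuron genes rose and 1 fell. Of the neural progenitor genes 2 rose and 1 fell, and of the glial genes 0 rose and 2 fell. Eed and Jarid2 fell over that interval, and any link was not tested. Nanog was highest at Day4, at 9.98 against 9.20 in ES cells. Of 6 mesoderm and endoderm genes 4 had a probe well above background at Day7, and of 5 glial genes 5 did. For Sox17 and Gfap this was a probe other than the brightest. The endoderm genes Sox17 and Gata6, singled out after their values were seen, had a peak at Day4 on their brightest probes. Sox17 read 6.55, 6.40, 8.70, 8.96 and 4.94 on the 5 arrays, the last not well above background, and Gata6 read 6.17, 6.47, 7.78, 10.43 and 6.59. The other probe of Sox17, well above background on all 5 arrays, read 6.13, 7.95, 7.41, 7.97 and 5.41, so there Day2 was near Day4. On the brightest probes Sox17 and Gata6 rose by 2.41 and 4.27 from ES to Day4. From Day4 to Day7 they fell by at least 4.02 and by 3.85. On its other probe Sox17 had risen by 1.82 at Day2 and 1.84 at Day4, and fell by 2.57 from Day4 to Day7. Of the list of 6, 5 had a value from ES to Day4, where 2 rose and 1 fell. From Day4 to Day7 4 had a value, where 0 rose and 3 fell. The median level over the 6 was 6.88, 6.62, 7.72, 8.33 and 5.54. Cbx8 and Cbx2 were also highest at Day4 after quantile normalization, and the part of such cells in their courses was not tested. Without normalization neither was highest at Day4, with changes of -0.26 for Cbx8 and -0.32 for Cbx2 from Day3 to Day4. In that setting the median of all genes over the same step was -0.48. From ES to Day7 the brightest probes of these lists had medians of -1.61 or lower and -0.06 over 5 and 4 genes with a value, and the neural progenitor list had a median of -0.13.

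Within the members Cbx8 and Cbx2 rose between ES and Day3, while Cbx7, of the same family, was lower at Day7. Of the PRC2 genes Jarid2 had fallen by Day2, where Eed was just short of 2-fold with a change of -0.97 (-1.36 after a 75th percentile shift), and Eed had the largest fall of the core at Day7. From ES to Day2 0 members rose, where 10.7% of all 18316 genes with a value did, and 2 fell, Jarid2 and Cbx7, where 11.3% did. From ES to Day3 2 members rose, beside 15.6% of all 15203 genes, and 2 fell, beside 10.2%. From ES to Day4 2 rose, beside 17.0% of 15838 genes, and 2 fell, beside 14.4%. From ES to Day7 1 rose, beside 24.8%, and 5 of 10 fell, beside 24.4% of 15838 genes. From Day4 to Day7 0 rose, beside 18.1%, and 3 fell, beside 18.1% of 16082 genes. In the comparisons up to Day4 the counts of 0 or 2 of 10 lay near those shares. The members' median change was -0.32, -0.49, -0.49 and -1.04 from ES to Day2, Day3, Day4 and Day7, where the median over all genes was 0.00, 0.06, 0.05 and -0.07. These 4 comparisons share the ES array.

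**Figure D1:**
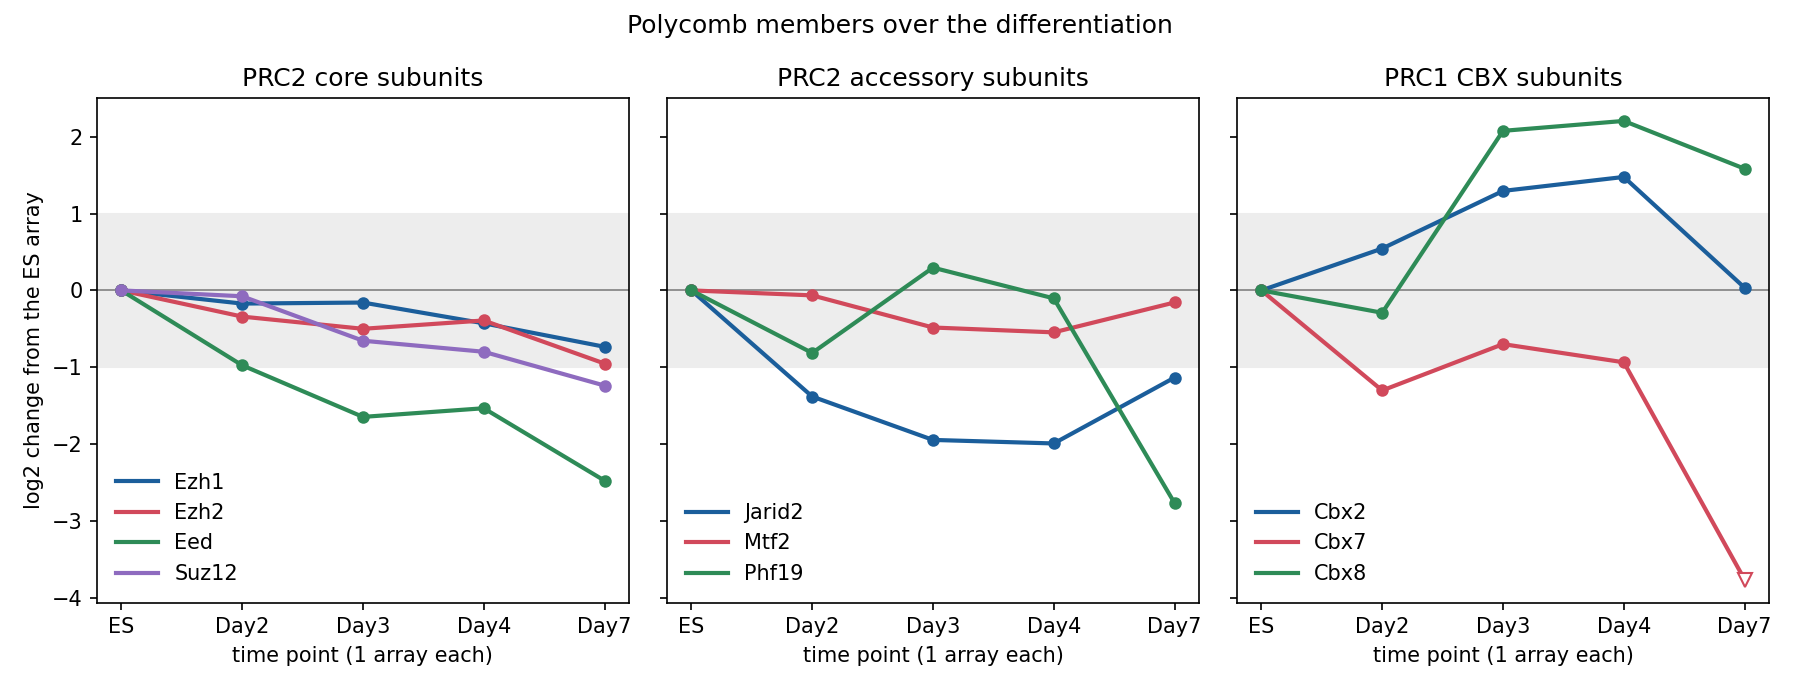
Log2 change of each member from the ES array (vertical axis) at the 5 time points (horizontal axis, 1 array each), with the band between -1 and 1 shaded grey, and the open triangle marking a limit because Cbx7 was not well above background at Day7. Cbx8 reached 2.20 at Day4 and Cbx7 reached -3.76 or lower at Day7, while Ezh1, Ezh2 and Mtf2 stayed inside the band after quantile normalization.

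Cbx7, a chromobox subunit known as the main form in ES cells, had log2 levels of 8.42 in ES cells, 7.12 at Day2, 7.72 at Day3 and 7.48 at Day4. At Day7 its probe read 4.24 and was not well above background. It fell 2.47-fold from ES to Day2 and was at least 13.6-fold lower at Day7 than in ES cells, with the Day7 value set at the lowest level of a detected probe there. From Day4 to Day7 it fell at least 7.10-fold. After normexp background correction these limits were smaller, with changes of -2.21 from ES and -1.53 from Day4. The early fall depended on the normalization, since the ES to Day2 change was -0.52 without normalization and -0.75 both in the deposited values and after a 75th percentile shift. Without normalization the changes to Day3 and Day4 were instead larger, at -1.31 and -1.89, against -0.70 and -0.94 in the main setting.

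Cbx8, which takes the same place in PRC1, read 6.54 in ES cells, 6.25 at Day2, 8.61 at Day3, 8.74 at Day4 and 8.12 at Day7. The ES and Day2 arrays were the low ones. From Day2 to Day3 the level changed 5.16-fold, or 2.37 on the log2 scale, but by 1.53 after normexp background correction and 0.76 without normalization, so the size of that step depended on the processing. Without normalization the median of all genes over that step was -0.81. At Day7 Cbx8 was still 1.58 above ES on the log2 scale. Its ES to Day4 change was 2.20, and 1.36 without normalization. Cbx2, the form with a DNA-binding stretch known to compact chromatin, read 10.74, 11.29, 12.04, 12.22 and 10.78 in the same order. It was 2.78-fold higher at Day4 than in ES cells and then fell 2.72-fold to Day7, where it differed from ES by 0.03. Without normalization its changes were under 2-fold (0.69 to Day3, 0.37 to Day4 and -0.11 from Day4 to Day7).

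Cbx6, another chromobox gene of PRC1, read 12.36 in ES cells and 13.04 at Day7, a change of 0.67, while its other probes changed by 0.92 and -0.53. Over these 4 chromobox genes, 2 rose and 0 fell from ES to Day4 (1 and 2 without normalization), and 1 rose and 1 fell from ES to Day7, with medians of 0.62 and 0.35. Cbx2 and Cbx8 are neighbouring protein-coding genes on chromosome 11 in the RefSeq annotation of GRCm38.p6. At Day7 Cbx2 was back near its ES level while Cbx8 was still above its own.

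Differences between changes of genes on the same arrays do not depend on a shift of a whole array. The pairs were chosen after their values were seen. From ES to Day3 the change of Cbx8 exceeded that of Cbx7 by 2.77, with a range of 2.09 to 2.94 over the processing alternatives. From ES to Day4 the difference was 3.14 (2.24 to 3.33), and for Cbx2 against Cbx7 it was 2.41 (2.07 to 2.46). From ES to Day2 Cbx8 against Cbx7 gave 1.01 (0.90 to 1.38), with Cbx8 itself at -0.29. The change of Cbx8 against that of Cbx2 was less settled, at -0.84 from ES to Day2 (-0.84 to 0.26) and 0.73 from ES to Day4 (0.17 to 0.99).

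Eed, the PRC2 subunit that reads the methyl mark, had the widest course of the core. Its log2 level was 15.33 in ES cells, 14.36 at Day2, 13.69 at Day3, 13.80 at Day4 and 12.86 at Day7. It fell 3.13-fold from ES to Day3 and 5.56-fold to Day7. The change to Day3 was -2.59 without normalization, and that to Day7 was -3.06 after a 75th percentile shift. Suz12, the subunit that holds the complex together, read 12.78, 12.70, 12.12, 11.98 and 11.54. It was 2.36-fold below ES at Day7. Its change to Day4 was -0.80, but -1.15 after a 75th percentile shift and -2.11 without normalization, where the change to Day3 was already -1.45.

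The 2 catalytic subunits changed by less than 2-fold in each comparison after quantile normalization. Ezh2, the enzyme of dividing cells, read 13.14, 12.80, 12.64, 12.74 and 12.18, with an ES to Day7 change of -0.95 that became -1.44 after a 75th percentile shift. Ezh1, the form known from resting cells, read 12.31, 12.14, 12.15, 11.88 and 11.58, and its ES to Day7 change was -1.08 after that shift. Without normalization, where the median of all genes was -1.06 from ES to Day4, that change was -1.77 for Ezh2 and -1.69 for Ezh1. The change of Ezh1 from ES to Day7 exceeded that of Ezh2 by 0.22, which is below the median difference of 0.54 between probes of 1 gene. Of its 3 probes, a second read 10.44, 10.39, 11.13, 10.73 and 10.16. The dimmest was well above background at Day2, Day3 and Day4 only, and on it Ezh1 rose at least 3.49-fold from ES to Day3.

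The remaining core genes of the fixed list, the histone-binding Rbbp4 and Rbbp7, changed by -0.44 and -0.84 from ES to Day7. Over the 6 core genes 0 rose and 2 fell, beside 24.8% and 24.4% of all genes, with a list median of -0.90. After a 75th percentile shift all 6 fell, where 32.3% of all genes did and the median of all genes was -0.35. In every comparison from ES the list's median was below 0, at -0.26, -0.49 and -0.41 for Day2, Day3 and Day4.

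Among the accessory subunits, Jarid2, which helps PRC2 reach its sites in ES cells, read 13.94 in ES cells, 12.56 at Day2, 11.99 at Day3, 11.94 at Day4 and 12.80 at Day7. It fell 2.60-fold from ES to Day2 and 3.97-fold to Day4. At Day7 it was 2.19-fold below ES, and its Day4 to Day7 change was 0.86. Without normalization the changes to Day3 and Day4 were -2.85 and -3.40, and the Day4 to Day7 change was 2.05. Mtf2, which belongs to the alternative form of PRC2, read 13.12, 13.06, 12.64, 12.58 and 12.96, and changed by less than 2-fold in each comparison, though by -1.92 to Day4 without normalization. Its second, dimmer probe read 6.33, 5.07, 6.08, 5.92 and 5.03, and there the ES to Day2 and ES to Day7 changes were -1.27 and -1.30, so the probes of Mtf2 disagreed.

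Phf19, a relative of Mtf2 in the same form of the complex, read 10.27 in ES cells, 9.45 at Day2, 10.56 at Day3, 10.16 at Day4 and 7.50 at Day7. Day7 was the low array. Phf19 fell 6.33-fold from Day4 to Day7 and was 6.81-fold below ES. Without normalization the change from Day4 was -1.44, and that from ES to Day4 was -1.13, against -0.10 in the main setting. Epop, another partner of that form, had a similar late fall. It read 14.30, 15.25, 15.71, 15.09 and 12.32, and fell 6.82-fold from Day4 to Day7. Phf1, the third member of the family of Mtf2 and Phf19, had instead risen 2.79-fold by Day3 and was 2.66-fold above ES at Day7. Aebp2, a partner of the Jarid2 form, fell 2.57-fold from ES to Day7, and Lcor rose 4.78-fold. Of the 7 accessory genes 2 rose and 4 fell from ES to Day7, with a median of -1.13.

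Proliferation genes fell over the same last interval. Of 10 such genes 7 fell from Day4 to Day7 and 0 rose, with a median change of -1.40, but 0 of 10 fell without normalization, where the median of all genes was 1.06. The list's median level was 14.55, 14.69, 14.83, 14.80 and 13.33 over the 5 arrays, with all 10 genes detected on each. Among them Mcm3 fell by 1.81 and Top2a by 1.47. The part of fewer dividing cells in the late falls of Phf19, Cbx7 and Cbx2 was not tested. In bulk RNA fewer cells of a type and less RNA per cell cannot be told apart.

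The promoters were searched for the 4 letter strings TTTCCCGC, TTTGGCGC, TTTCGCGC and TTTGCCGC, which spell the usual E2F motif of cell cycle genes, on both strands. RefSeq windows of 300 bases, from 250 before to 50 after the start (GRCm38.p6), were at hand for 9 of the 10 members, in 11 windows. Cbx2 had no entry. A string was found in 3 of the 11 windows, those of Ezh2, Suz12 and Phf19, and in 744 of all 32851 windows (2.26%). The stretches of 30 bases around them are shown with the string in capitals. Binding of E2F proteins there, and any part in the changes above, was not tested. They are given on the strand of the gene, and in Phf19 the string lies on the other strand.
Ezh2, chr6:47595009-47595038, minus strand, string 4 bases after the start: gggttgctgcgTTTGGCGCtcggtccggtc
Suz12, chr11:79992876-79992905, plus strand, string at -219: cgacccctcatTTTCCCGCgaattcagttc
Phf19, chr2:34914166-34914195, minus strand, string at -208: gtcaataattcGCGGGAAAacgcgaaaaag
The windows of Eed, Cbx7, Ezh1, Jarid2, Mtf2 and Cbx8 held none of the strings. The members' windows held 17 to 41 CG pairs, apart from the second of the Mtf2 windows with 2, and the median over all windows was 7. Each of the 4 strings holds a CG pair, so the 2.26% of all windows is not a like background for the members' windows.

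The 3' Hox genes, known targets of Polycomb in ES cells, had mostly risen by Day2, before Cbx8 and Cbx2 passed 2-fold. By Day2 Cbx2 had changed by 0.54 and Cbx8 by -0.29, but Cbx8 by 0.86 without normalization. The order rests on the 2-fold threshold and on the Day2 array, which differed in quality. Of 13 listed Hox genes with a value 11 had risen by Day2, with a median change of at least 5.69, and all 14 had risen by Day3, with a median of at least 6.26. These are lower limits, since the ES spots of 7 and 8 of the genes were too dim to count as detected. In ES cells 6 of the 14 were well above background. Hoxb4 had risen by 6.66 at Day2, while Hoxd4, with a change of 0.32 at Day2, had risen by 5.19 at Day3. From Day4 to Day7 4 Hox genes rose and 4 fell (8 and 2 without normalization), among them Hoxb1, which fell by 5.05.

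Of the other subunits of PRC1, the ring finger genes, the polyhomeotic genes and Scmh1 formed a list of 8, of which 4 rose and 1 fell from ES to Day4, with a median of 1.09, but 0 rose and 2 fell without normalization. The polyhomeotic genes went apart. Phc1 read 13.23, 13.17, 11.70, 11.08 and 11.43 and fell 4.44-fold to Day4, while Phc2 read 12.75, 13.57, 14.31, 14.44 and 14.94 and rose 4.59-fold to Day7. The difference between their changes from ES to Day4 was 3.84, with a range of 3.72 to 3.93 over the alternatives. Phc3 rose 3.94-fold and Bmi1, the ring finger partner of the E3 ligases, 2.71-fold from ES to Day7, and 8.82-fold on the other probe of Bmi1. Ring1, 1 of the ligases, read 8.76 in ES cells, 10.69 at Day4 and 9.68 at Day7, while its paralogue Rnf2 changed by 0.84 from ES to Day7.

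Variant PRC1 complexes lack a Polycomb chromobox subunit such as Cbx2, Cbx7 or Cbx8. Of their 12 genes with a probe 2 rose and 4 fell from ES to Day7, with a median of -0.52. Pcgf5 fell 6.07-fold, L3mbtl2 4.67-fold and Rybp 3.38-fold. L3mbtl2 had changed by -0.05 at Day4, so that its fall lay between Day4 and Day7. Yaf2, the paralogue of Rybp, rose 2.18-fold, and 5.43-fold on its other probe. Auts2 had no matched probe.

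Of the enzymes that act against Polycomb marks, the demethylase gene Kdm6b rose early. It read 10.68, 12.17, 12.24, 12.51 and 12.91, and was 2.81-fold above ES at Day2 and 4.69-fold above at Day7, while Kdm6a changed by 0.02. In the list of the deubiquitinase complex, Asxl3 was 13.1-fold higher at Day7 than in ES cells (at least 6.48-fold on its dimmer probe), with 3.24 of that change of 3.71 after Day4, and Asxl2 fell 2.32-fold. Bap1, the enzyme itself, changed by 0.14. Of 8 trithorax genes with a probe, which counter Polycomb, 0 rose and 2 fell from ES to Day7, Wdr5 and Dpy30, with a median of -0.79. After a 75th percentile shift 4 fell, where 32.3% of all genes did. Kmt2a had no matched probe. The 3 HP1 genes Cbx1, Cbx3 and Cbx5, chromobox proteins of another silencing system, changed by -0.80, 0.07 and -0.33.

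**Figure D2:**
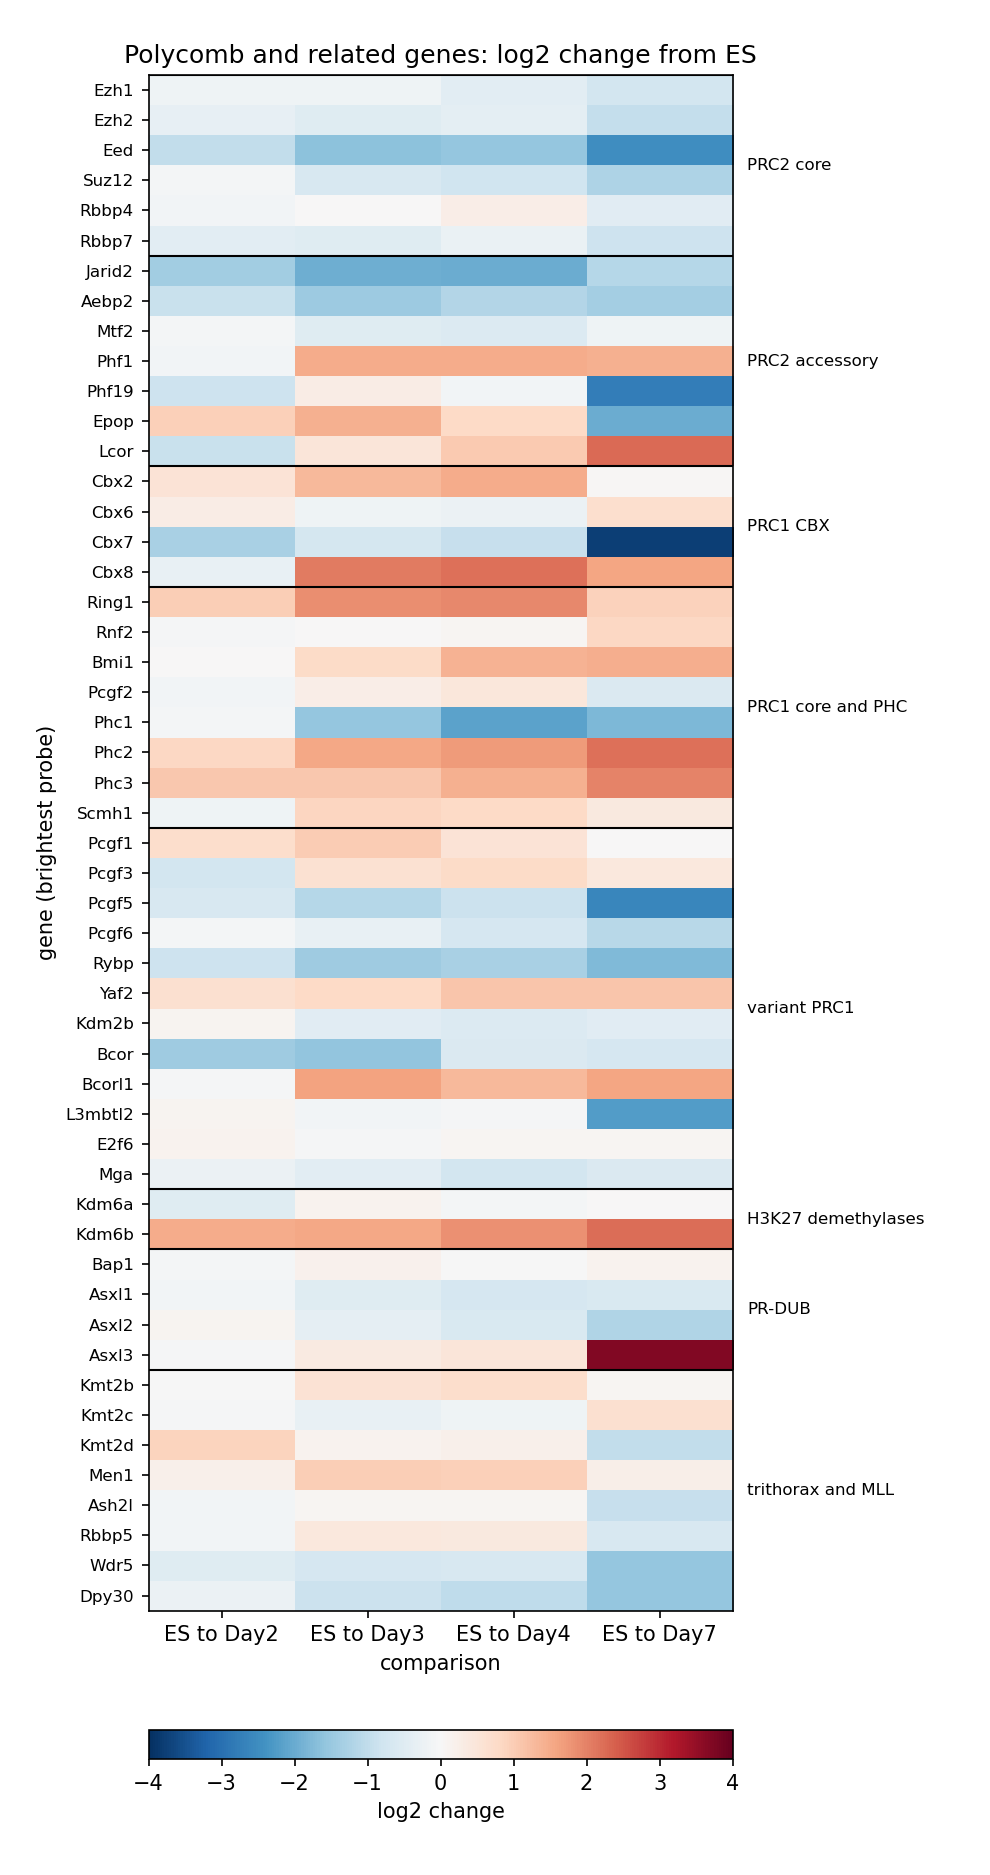
Log2 change from ES (colour, red for higher and blue for lower) at the 4 later time points (columns) of the Polycomb and related genes with a probe (rows, grouped by list). Cbx7 and Asxl3 have the deepest colours at Day7, with changes of -3.76 or lower and 3.71.

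Over the 41 other Polycomb and trithorax genes with a probe, 9 rose and 4 fell from ES to Day4, but 0 rose and 22 fell without normalization. From ES to Day7 9 rose and 10 fell, with a median of 0.02, and after a 75th percentile shift 16 fell, where 32.3% of all genes did. From Day4 to Day7 2 rose and 8 fell, but without normalization 21 rose and 1 fell. The housekeeping list of 8 had a median of -0.11 from ES to Day7, but Hprt fell by 2.81 and Tbp by 1.47 (its other probe changed by -0.30), while Gapdh changed by -0.13.

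Genes with a course most like that of a member were found among 13468 genes well above background on all 5 arrays, by the root mean square distance between profiles centred on their own mean. For Cbx2 these were Orai1, Kif1c and Slf2, at distances of 0.05, 0.05 and 0.08 on the log2 scale. For Cbx8 they were Selenbp1, R3hdm4 and Cercam, at 0.13, 0.16 and 0.19. For Phf19 they were Prss8, Cracr2b and Eng, at 0.07, 0.19 and 0.19. For Jarid2 they were Tbc1d23, Fgd4 and Hrg, at 0.09, 0.10 and 0.11. For Eed they were Gtf2h1, Taf1a and Fastkd3, at 0.07, 0.07 and 0.09. For Suz12 they were Polr1d, Rps23rg1 and Chchd5, at 0.03, 0.04 and 0.04. Such distances are smaller by construction for a profile that varies little, as that of Suz12 did. Ezh1, Ezh2 and Mtf2 varied by less than 2-fold and Cbx7 was not detected at Day7, so they were not compared in this way.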

How the data were processed

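Total RNA of 5 samples was hybridised to one-colour Agilent arrays, and the scans were read with Agilent Feature Extraction 10.5.1 according to the submitters' processing notes. The authors deposited the scanner intensity of each spot, background-subtracted and detrended, with detection flags (other values). They also deposited log2 values, which equalled the log2 median signal minus the 75th percentile within 0.01 for 99.5% or more of the probes of each array. Control and outlier spots were removed, spots averaged per probe, and log2 intensities quantile-normalized in limma 3.58.1 (R 4.3.3). Python 3.11.15, numpy 2.4.6, pandas 2.3.3 and matplotlib 3.10.9 did the rest. RefSeq accessions (GRCm38.p6) named 26300 probes. A probe not well above background was set at the lowest detected value of that array, or left at its own value where higher. Genes whose brightest probe was detected on neither array had no value, and those whose detected side did not exceed the floor entered as 0. Only the step that calls a 2-fold change was tested on simulated data, with known changes put into bright ES values. Normalization, choice of probes and the limits for dim probes were not tested in this way. Named genes were the members, every gene of the lists, and the 3 nearest profiles; 2 listed genes are not reported here and were left out of the list counts. The members and lists were chosen with earlier results of these data known. In all 13 alternatives were run, 2 of them chosen after seeing the data. The number of arrays limits the precision.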

Additional observations from a re-analysis of the deposited data

Results flagged for a closer look

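Of the 96 probes for synthetic spike-in RNA (ERCC), which no comparison used, 66.7% were well above background on the Day2 array, against 4.17% to 9.38% on the other 4 arrays.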

How the results depend on the processing

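Of 21 member changes of at least 2-fold, 15 kept that size in every alternative with a value. Of 216 values 0 turned sign, but many could not change. The other 6 were the fall of Cbx7 from ES to Day2 (also -0.91 after normexp background correction), the 3 changes of Cbx2, and the Day2 to Day3 changes of Cbx8 and Phf19 (0.76 and 0.38 without normalization). The counts of members were within 1.5 times of the main count, and their median changes within 0.58 on the log2 scale, after the 75th percentile shift, with the deposited log2 values, the other detection flag, either filter on dim probes and either probe rule, and in quantile normalization without the Day2 or without the Day7 array, which was chosen after seeing the data. Of 49 member changes under 2-fold, 25 passed it under at least 1 alternative, and after the 75th percentile shift 7 members fell from ES to Day7 (32.3% of all genes, whose median was -0.35), with medians of -0.61, -0.82, -0.87 and -1.53 from ES to Day2, Day3, Day4 and Day7. After normexp background correction 1 member fell from ES to Day2 (843 of all 18316 genes). Without normalization 1 rose and 6 fell from ES to Day3 (median -1.32; 7.16% and 32.9% of all genes), 1 rose and 8 fell from ES to Day4 (median -1.83; 5.55% and 52.7%), and 2 rose from Day4 to Day7 (median 0.68; 52.1%). There the median of all genes was itself -0.63, -1.06 and 1.06, so that relative to it the members' median was -0.69, -0.76 and -0.38, against -0.55, -0.54 and -0.47 in the main setting.

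With a 1.5-fold threshold 4 members fell from ES to Day2 (19.3% of all genes), 4 to Day3 (20.7%) and 4 to Day4 (24.4%), and 1 rose (25.7%) and 5 fell (31.1%) from Day4 to Day7. With a 4-fold threshold 0 fell from ES to Day2 (3.64%), 1 rose (4.15%) and 0 fell (2.32%) to Day3, 1 rose (5.19%) and 0 fell (4.10%) to Day4, and 0 rose (12.9%) and 3 fell (8.37%) to Day7.

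Changes of at least 2-fold that took the opposite sign without normalization were those of Mki67 (-0.41) and Yaf2 (-0.14) from ES to Day4, and from Day4 to Day7 those of Ash2l (0.15), Esrrb (0.11), Gusb (0.30), Hoxb2 (0.07), Kmt2d (0.03), Nanog (0.13), Pcgf2 (0.27), Rbbp5 (0.28) and Ring1 (0.33). Of the members' changes under 2-fold from ES or from Day4, those of Cbx8 from ES to Day2 (0.86), Phf19 from ES to Day3 (-0.25), and Cbx8 (0.66), Eed (0.30), Ezh1 (0.97), Ezh2 (0.69) and Suz12 (0.84) from Day4 to Day7 turned there too. With another choice of probe changes of at least 2-fold turned sign for Aqp4 from ES to Day2 (1.17 for the mean of its probes, 4.94 for the dimmest), to Day4 (0.58) and to Day7 (0.44) and for Mbp from ES to Day7 (-0.04).

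Of all genes changed at least 2-fold, the share that rose was 48.7% from ES to Day2 and 60.3% to Day3. After the 75th percentile shift it was 74.9% and 48.0%. Without normalization it was 85.4% and 17.9%. With 1 array at each time and Day7 alone on its slide, no pairing or slide block could be fitted.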
